A study of Solanum lycopersicum with 6 samples.

Results

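The 10 genes described here carry out jasmonate synthesis and signalling in tomato (*Solanum lycopersicum*). They were chosen by identifier, with the version suffix removed, from published gene names. All 10 were found among the 23709 genes listed in at least 1 library, and all 10 had enough counts to be tested. Their roles are synthesis (*AOS1*, *AOC* and *OPR3*), perception and transcription (*COI1* and *MYC2*), and repression (*JAZ1*, *JAZ2*, *JAZ3*, *JAZ6* and *JAZ7*).

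RNA came from the pericarp, the flesh of the fruit, at 38 days post anthesis. The groups were 3 libraries of fruit with the genotype label SlDof1 RNAi, whose titles all carry the name SlDof-8, and 3 libraries of wild type fruit. Dof proteins are plant zinc-finger transcription factors, and RNAi silences a gene through double-stranded RNA. The labels give no cultivar, no promoter for the RNAi construct and no number of independent transgenic lines, and leave unsaid whether the replicates came from different plants. They do not tie SlDof1 to an identifier, so its silencing was not checked here. In bulk tissue, fewer cells of a type and less RNA per cell cannot be told apart.

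Jasmonates are plant hormones made from the fatty acid linolenic acid. In the plastid a lipoxygenase oxidises the fatty acid, allene oxide synthase (AOS) and allene oxide cyclase (AOC) turn the product into OPDA, and OPR3 in the peroxisome reduces OPDA before β-oxidation shortens it to jasmonic acid. The isoleucine conjugate of jasmonic acid joins the F-box protein COI1 to a JAZ repressor, the JAZ protein is degraded, and the transcription factor MYC2 is released. *JAZ* genes are themselves among the targets that MYC2 activates, so the pathway makes its own brake. In tomato the pathway is best known for the response to wounding and insects.

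The total expected count per library lay between 9608643 and 10002358, and 20944 to 21206 genes were listed per library. Wild type library 1 and RNAi library 3 stood apart from the other 4 libraries on the second principal component (30.4% of the variance). No pair of replicates agreed within sampling noise (chi-square per degree of freedom 2.12 to 16.9). The fruit markers *PG2a*, a polygalacturonase, *PSY1*, a phytoene synthase, and the MADS-box regulators *RIN* and *TAGL1* were present in all libraries at 134 FPKM or more, as the tissue label says. FPKM is the fragment count scaled by transcript length and library total. With Solyc09g089580.2, these 5 markers summed to 4635 to 4907 FPKM in RNAi fruit and 7369 to 8607 FPKM in wild type fruit. Most of the sum was Solyc09g089580.2, at 3480 ± 101 FPKM in RNAi fruit and 4670 ± 121 FPKM in wild type fruit (SD, n = 3 each; edgeR adjusted p = 0.00882). Of the single markers, *PG2a* fell to 165 ± 44.1 FPKM in RNAi fruit, against 1240 ± 348 FPKM in wild type fruit (edgeR adjusted p = 0.000204). *PSY1* and *RIN* fell to 0.535 and 0.575 times their wild type level (edgeR adjusted p = 0.000441 and 0.0288), and *TAGL1* did not pass (edgeR adjusted p = 0.0777). The 3 epidermal markers summed to 50.5 to 71.4 FPKM in RNAi fruit and 34.0 to 44.4 FPKM in wild type fruit. Nearly all of that sum was *CER6*, a wax synthesis gene, at 57.7 ± 11.9 FPKM in RNAi fruit and 37.5 ± 5.98 FPKM in wild type fruit (SD, n = 3 each; edgeR adjusted p = 0.052). The cutin gene *CD1* was at 0 in 5 libraries and at 0.1 FPKM in wild type library 2, and the third marker, Solyc08g081220.1, was at 0 in 4 libraries and at 0.25 FPKM in RNAi library 2 and wild type library 2. Both marker sums differed between the groups without overlap, and their part in the results below was not tested.

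RNAi fruit were compared with wild type fruit to ask which of these genes differ in transcript level. *AOS1*, the entry enzyme of the pathway branch, and the repressor gene *JAZ3* rose in RNAi fruit, by 1.69-fold and 1.45-fold. The other 8 genes did not pass the test, among them *COI1* and *MYC2*, the core of perception and response. No gene of the 10 fell. Calls rest on the quasi-likelihood test of edgeR, with p-values adjusted by Benjamini-Hochberg over the 16737 tested genes and a threshold of 0.05. It called 12.3% of all tested genes, 6.54% higher and 5.8% lower in RNAi fruit, beside which stand the 2 higher and 0 lower calls among the 10. At an unadjusted p under 0.05, 5 of the 10 were higher and 0 lower, beside 12.8% and 12.5% of all tested genes. DESeq2 called 3 of the 10 higher and 0 lower, beside 6.4% and 5.39% of all genes. With limma on log2(FPKM + 1), 5 were higher and 0 lower, beside 7.48% and 4.27% of all genes. The median log2 fold change of the 10 was 0.25, against -0.01 over all tested genes. The 10 genes were chosen with earlier results of these data known, so these comparisons with all genes are descriptions. Without wild type library 1, 4 of the 10 rose (6.7% of all genes). With any other single library left out 2 rose, beside 3.49% to 5.72% of all genes. With both RNAi library 3 and wild type library 1 left out, a choice made after seeing the data, 4 of the 10 rose, but so did 11.4% of all genes, more than with all libraries.

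**Figure D1:**
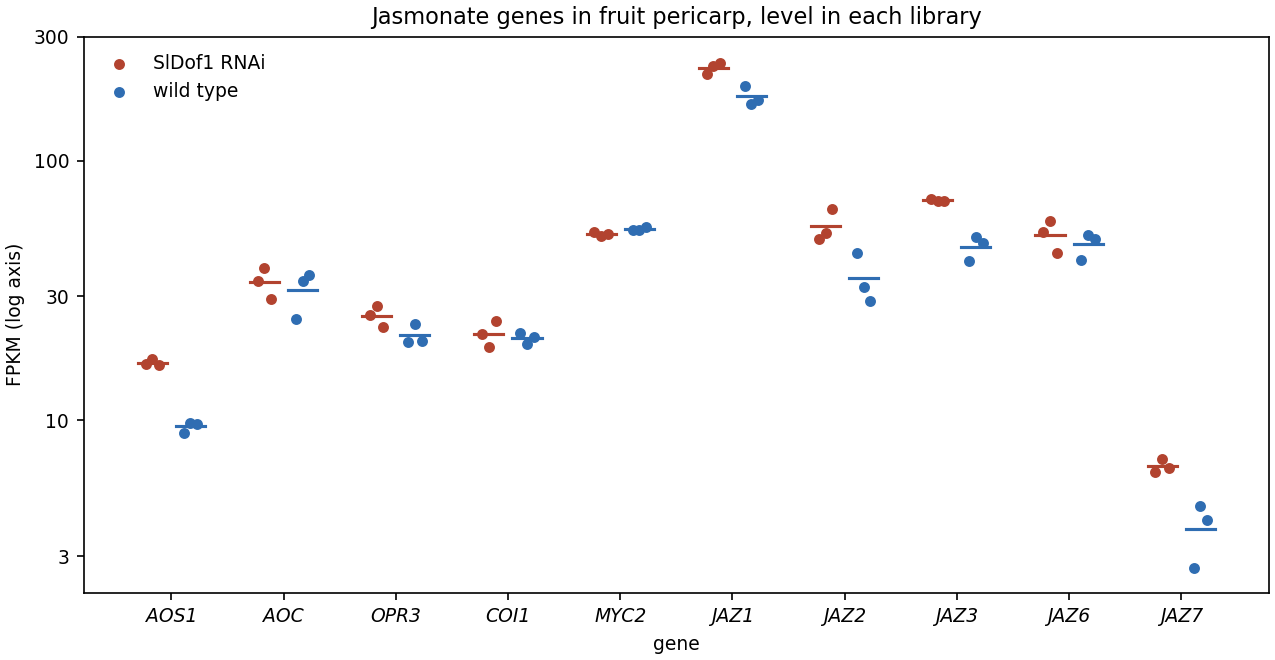
FPKM (log axis) of the 10 jasmonate genes in each library, with SlDof1 RNAi libraries in red and wild type libraries in blue; each point is 1 library and each bar the mean of 3. The RNAi points lie above all wild type points for *AOS1*, *JAZ1*, *JAZ2*, *JAZ3* and *JAZ7*, below them for *MYC2*, and among them for the other 4 genes.

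By FPKM the groups were separate for 6 of the 10 genes, 5 with RNAi fruit above and 1 with RNAi fruit below. Among all tested genes the groups were separate for 31%, made up of 18.9% with RNAi fruit above and 12.1% with RNAi fruit below. Fitted fold changes use TMM scaling factors, which set them 0.055 lower on the log2 scale, in the median over all tested genes, than the ratio of mean FPKM. All 60 expected counts of the 10 genes were whole numbers, whereas reads shared between genes leave fractions.

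In synthesis, *AOS1* (Solyc04g079730.1) encodes an allene oxide synthase. It had 16.5, 17.2 and 16.3 FPKM in RNAi libraries 1 to 3, against 8.91, 9.81 and 9.72 FPKM in wild type libraries 1 to 3. The groups lay far apart beside the spread within each, which was 0.471 and 0.496 FPKM (SD, n = 3 each). The log2 fold change was 0.76 ± 0.10 (SE), with a 95% interval of 0.52 to 0.99 and an edgeR adjusted p of 0.00256. Behind these values stood 247 to 266 reads per RNAi library and 135 to 151 per wild type library. *AOS1* also passed in each of the 15 alternative analyses (adjusted p 2.85e-06 to 0.0279).

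The rise of *AOS1* concerned a small part of the allene oxide synthase transcript. Its paralogue *AOS2* (Solyc11g069800.1) had 846, 873 and 872 FPKM in RNAi libraries 1 to 3, against 802, 786 and 825 FPKM in wild type libraries 1 to 3. The ranges of FPKM were separate, but the fitted log2 fold change of *AOS2* was 0.05 ± 0.08 (SE; 95% interval -0.13 to 0.23; edgeR adjusted p = 0.77). The level of *AOS2* was 51.9 ± 1.48 times that of *AOS1* in RNAi fruit and 85 ± 4.97 times in wild type fruit (SD, n = 3 each). *AOS1* made up 1.89% ± 0.0523 of the summed FPKM of both genes in RNAi fruit and 1.17% ± 0.0673 in wild type fruit.

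*AOC* (Solyc02g085730.2), whose product sets the stereochemistry of OPDA, did not pass. It had 34.4, 38.7 and 29.3 FPKM in RNAi libraries 1 to 3, against 24.6, 34.5 and 36.2 FPKM in wild type libraries 1 to 3. The lowest library of each group was the one that stood apart, and the groups overlapped. The 95% interval of the log2 fold change was -0.33 to 0.44 (fitted 0.05; edgeR adjusted p = 0.896).

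*OPR3* (Solyc07g007870.2), the OPDA reductase, did not pass either. It had 25.4, 27.5 and 22.8 FPKM in RNAi libraries 1 to 3, against 20.1, 23.6 and 20.2 FPKM in wild type libraries 1 to 3. RNAi libraries 1 and 2 lay above every wild type library, and RNAi library 3 lay below wild type library 2. The fitted log2 fold change was 0.19 with a 95% interval of -0.07 to 0.45 (edgeR adjusted p = 0.347).

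In perception, *COI1* (Solyc05g052620.2), the receptor F-box gene, had 21.5, 19.2 and 24.1 FPKM in RNAi libraries 1 to 3, against 21.7, 19.7 and 21.0 FPKM in wild type libraries 1 to 3. Wild type fruit lay inside the range of RNAi fruit. The 95% interval of the log2 fold change was -0.24 to 0.23, which puts the fold between 0.849 and 1.17 (edgeR adjusted p = 0.994).

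*MYC2* (Solyc08g076930.1), the bHLH transcription factor that drives most jasmonate responses, varied little within either group. It had 53.0, 51.5 and 52.0 FPKM in RNAi libraries 1 to 3, against 54.3, 54.3 and 55.5 FPKM in wild type libraries 1 to 3. All RNAi libraries lay below all wild type libraries, with 1.28 FPKM between the nearest libraries. The SD was 0.765 FPKM in RNAi fruit and 0.679 FPKM in wild type fruit (n = 3 each). The fitted log2 fold change was -0.12 ± 0.08 (SE; 95% interval -0.30 to 0.05; edgeR adjusted p = 0.365). Its sign was the same and it did not pass in any of the 15 alternatives (log2 fold change -0.13 to -0.07, adjusted p 0.101 to 0.667). The tested genes with the pattern most like that of *MYC2* were Solyc02g070350.2 and Solyc01g108500.2. Their log2 CPM deviations from their own mean differed from those of *MYC2* by 0.0122 and 0.0138 on average over the 6 libraries. Like *MYC2*, neither passed (log2 fold change -0.12 and -0.13, edgeR adjusted p = 0.401 and 0.325), so the likeness is between genes with small deviations. CPM is the count scaled to library size, here with TMM factors.

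JAZ proteins hold MYC2 inactive until jasmonate is perceived. Among the repressor genes of the 10 described here, *JAZ3* (Solyc03g122190.2) alone was called higher. It had 71.3, 69.8 and 69.8 FPKM in RNAi libraries 1 to 3, against 41.0, 50.8 and 48.1 FPKM in wild type libraries 1 to 3. The RNAi libraries were nearly equal, and each lay above the highest wild type library. The log2 fold change was 0.54 ± 0.10 (SE; 95% interval 0.31 to 0.76; edgeR adjusted p = 0.00998), and it passed whichever single library was left out (edgeR adjusted p 0.0148 to 0.0431).

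*JAZ2* (Solyc12g009220.1) lay close to the threshold. It had 50.03, 52.6 and 65.3 FPKM in RNAi libraries 1 to 3, against 44.0, 32.7 and 28.9 FPKM in wild type libraries 1 to 3. The highest library of each group was the one that stood apart, and the groups did not overlap. The fitted log2 fold change was 0.61 ± 0.17 (SE; 95% interval 0.22 to 1.01; edgeR adjusted p = 0.0541). It passed without wild type library 1 (log2 fold change 0.81, edgeR adjusted p = 0.00831) and with DESeq2 (adjusted p = 0.019). In all, *JAZ2* passed in 6 of the 15 alternatives, and in only 1 of the 6 fits without a single library. The adjusted p ran from 9.69e-06 to 0.184, the lowest from the fit with a term added after seeing the data.

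*JAZ1* (Solyc07g042170.2) was the most abundant of the 10 genes. It had 216, 232 and 237 FPKM in RNAi libraries 1 to 3, against 195, 165 and 171 FPKM in wild type libraries 1 to 3. The groups did not overlap, with wild type library 1 nearest to the RNAi libraries. The fitted log2 fold change was 0.31 ± 0.09 (SE; 95% interval 0.10 to 0.53; edgeR adjusted p = 0.0648). Without wild type library 1 it passed (log2 fold change 0.39, edgeR adjusted p = 0.0274), as it did with limma on log2(FPKM + 1) (adjusted p = 0.0416). With DESeq2 it did not (adjusted p = 0.0616). In all, *JAZ1* passed in 5 of the 15 alternatives, and in only 1 of the 6 fits without a single library. The adjusted p ran from 0.000233 to 0.256, the lowest from the fit with a term added after seeing the data.

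*JAZ7* (Solyc11g011030.1) was the least abundant. It had 6.31, 7.13 and 6.54 FPKM in RNAi libraries 1 to 3, against 2.71, 4.66 and 4.12 FPKM in wild type libraries 1 to 3. These rest on 39 to 45 reads per RNAi library and 17 to 29 per wild type library. The groups did not overlap, but at this depth the 95% interval of the log2 fold change was wide, from 0.22 to 1.26 (fitted 0.74; edgeR adjusted p = 0.0723). It passed with limma on log2(FPKM + 1) (adjusted p = 0.0431), but not with any 1 of the 6 libraries left out (edgeR adjusted p 0.0968 to 0.186).

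*JAZ6* (Solyc01g005440.2) had 53.2, 58.6 and 44.0 FPKM in RNAi libraries 1 to 3, against 41.3, 51.7 and 49.9 FPKM in wild type libraries 1 to 3. The groups overlapped, and the lowest library of each was the one that stood apart. The fitted log2 fold change was 0.07 with a 95% interval of -0.24 to 0.39 (edgeR adjusted p = 0.811).

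**Figure D2:**
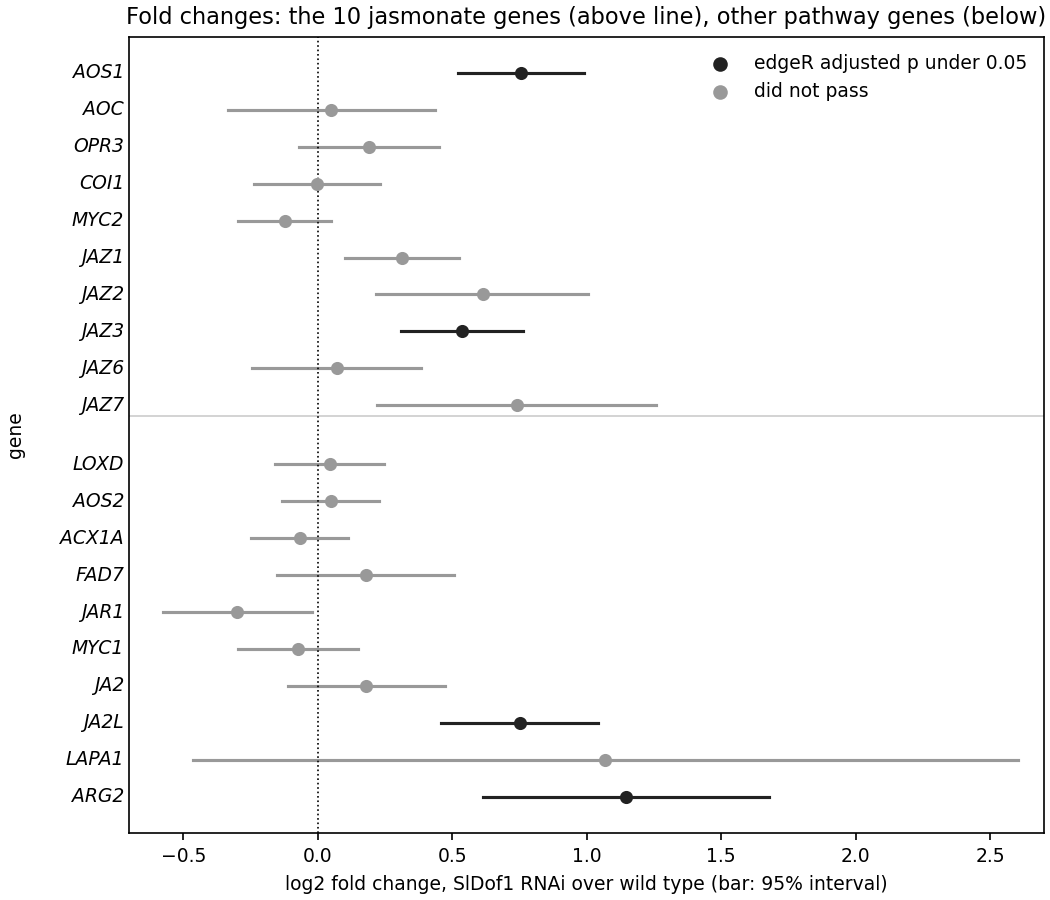
Log2 fold change of SlDof1 RNAi over wild type fruit (horizontal axis) with its 95% interval, for the 10 jasmonate genes above the line and 10 other tested pathway genes with a name in RefSeq below it; black marks an edgeR adjusted p under 0.05. *AOS1* and *JAZ3* above the line and *JA2L* and *ARG2* below it are black, and the interval of *LAPA1* is the widest, from -0.46 to 2.60.

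The 5 *JAZ* genes together had 397, 421 and 423 FPKM in RNAi libraries 1 to 3, against 324, 305 and 302 FPKM in wild type libraries 1 to 3. The sum was 1.33 times as high in RNAi fruit, with no overlap. Other *JAZ* genes were left out of the sum. Summed transcript of the 5 genes stood at 7.93 ± 0.385 times the *MYC2* level in RNAi fruit and 5.67 ± 0.264 times in wild type fruit (SD, n = 3 each). Against *COI1* it stood at 19.3 ± 2.32 times in RNAi fruit and 14.9 ± 0.537 times in wild type fruit. These ratios are descriptions over genes chosen with results known, and no test was made of them.

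*JAZ1* made up at least 54.1% of the summed level of these 5 *JAZ* genes in every library. It held 55.3% ± 0.843 of the summed FPKM in RNAi fruit and 57% ± 3.05 in wild type fruit (SD, n = 3 each). *JAZ3* held 17% ± 0.819 in RNAi fruit and 15.1% ± 2.13 in wild type fruit. For *JAZ2* the shares were 13.5% ± 1.67 in RNAi fruit and 11.3% ± 2.07 in wild type fruit, and for *JAZ6* 12.6% ± 1.91 in RNAi fruit and 15.4% ± 2.32 in wild type fruit. *JAZ7* held 1.61% ± 0.0762 in RNAi fruit and 1.24% ± 0.362 in wild type fruit. For *JAZ1*, *JAZ2*, *JAZ3* and *JAZ6* the ranges of the groups overlapped.

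**Figure D3:**
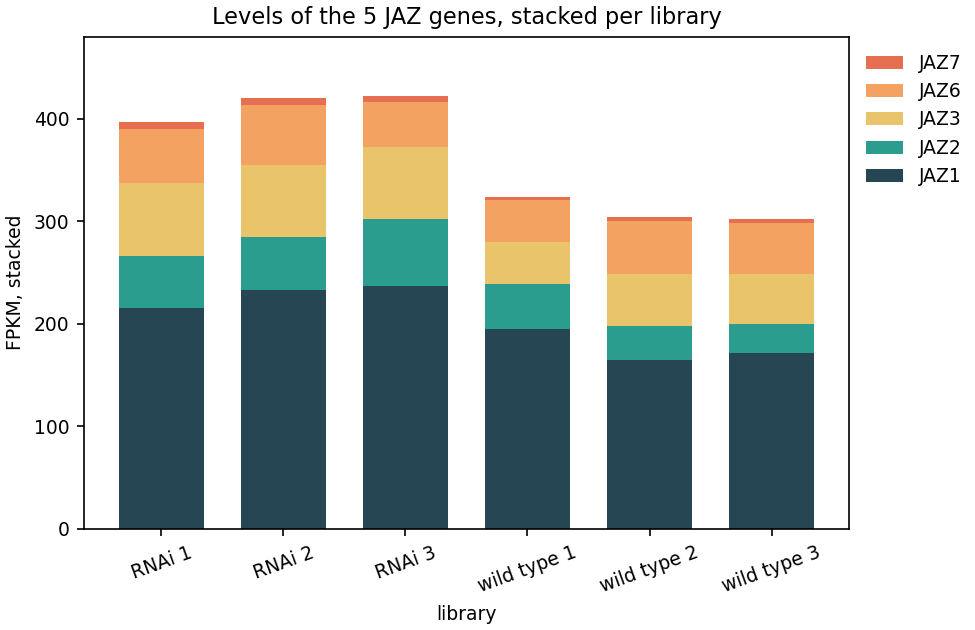
FPKM of *JAZ1*, *JAZ2*, *JAZ3*, *JAZ6* and *JAZ7* stacked for each library (vertical axis from 0), with the 3 SlDof1 RNAi libraries left of the 3 wild type libraries. The RNAi stacks reach 397 to 423 FPKM and the wild type stacks 302 to 324 FPKM, and *JAZ1* is the largest layer in all 6.

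Among the 10 genes the order of levels per length was headed by *JAZ1* and closed by *AOS1* and *JAZ7* in both groups. In RNAi fruit *JAZ1* was followed by *JAZ3*, *JAZ2*, *MYC2*, *JAZ6*, *AOC*, *OPR3* and *COI1*. Of these, *JAZ2* and *MYC2*, *MYC2* and *JAZ6*, and *OPR3* and *COI1* overlapped over the 3 libraries. In wild type fruit *JAZ1* was followed by *MYC2*, *JAZ6*, *JAZ3*, *JAZ2*, *AOC*, *OPR3* and *COI1*. There *JAZ6* and *JAZ3*, *JAZ3* and *JAZ2*, *JAZ2* and *AOC*, and *OPR3* and *COI1* overlapped. The mean level of *JAZ1* was above that of 96.8% of all tested genes in RNAi fruit and of 95.5% in wild type fruit. *AOS1* was above 53.4% of tested genes in RNAi fruit and above 39.2% in wild type fruit, where the median tested gene had 14.8 FPKM in RNAi fruit and 14.2 FPKM in wild type fruit.

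Within groups, some of the 10 genes moved with the libraries that stood apart. The log2 CPM of *AOC* differed by -0.34 between RNAi library 3 and the mean of the other RNAi libraries, and by -0.52 between wild type library 1 and the mean of the other wild type libraries. For *JAZ6* the differences were -0.37 in RNAi library 3 and -0.31 in wild type library 1. *JAZ2* went the other way, with 0.34 in RNAi library 3 and 0.52 in wild type library 1. For *AOC* and *JAZ6* these differences exceeded in size the fitted difference between the genotypes. The same held for *COI1*, with 0.21 in RNAi library 3 and 0.08 in wild type library 1. For *OPR3* it held in RNAi library 3 (-0.24) but not in wild type library 1 (-0.13). *AOS1* moved by -0.08 in RNAi library 3 and -0.14 in wild type library 1, and *MYC2* by -0.04 and -0.03 in the same libraries. The sign was shared by both libraries in 10 of the 10 genes and in 75.5% of all tested genes.

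**Figure D4:**
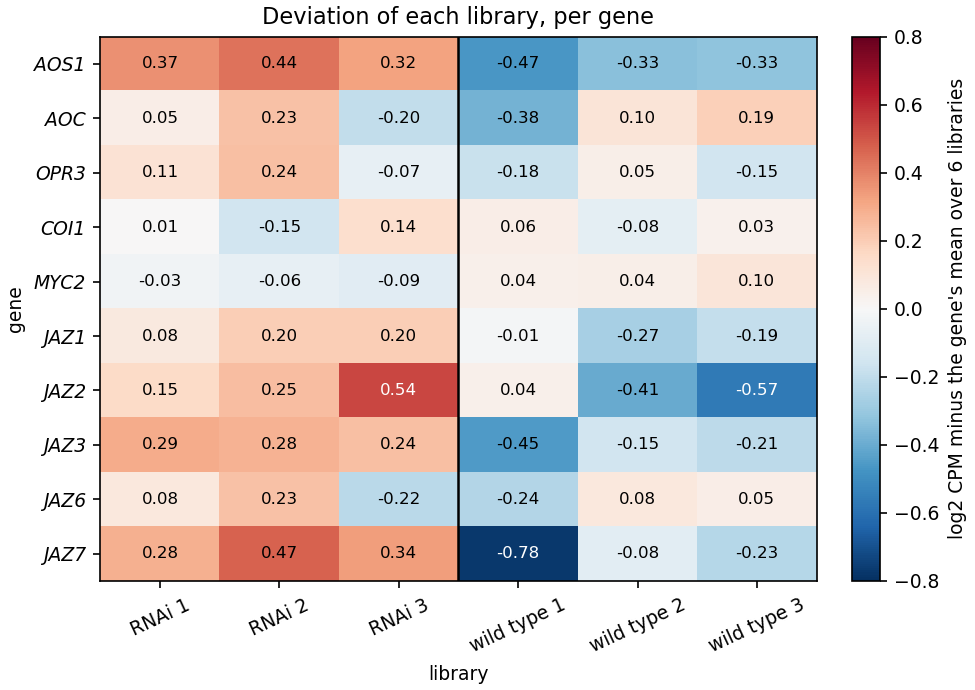
Log2 CPM of each of the 10 genes (rows) in each library (columns) minus the gene's mean over the 6 libraries, red above and blue below the mean, with the 3 SlDof1 RNAi libraries left of the line. *AOS1*, *JAZ1*, *JAZ3* and *JAZ7* are red in all RNAi columns and blue in all wild type columns, whereas *AOC* and *JAZ6* are blue in RNAi 3 and wild type 1 and red in the other 4 libraries.

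Of 25 other jasmonate pathway genes, listed from memory, 23 were in the files and 19 had enough counts to be tested. In RNAi fruit 3 of the 19 rose and 0 fell, beside 6.54% and 5.8% of all tested genes. At an unadjusted p under 0.05, 4 were higher and 1 lower, beside 12.8% and 12.5% of all. DESeq2 and limma on log2(FPKM + 1) each called 3 higher and 0 lower, where DESeq2 called 6.4% and 5.39% and limma 7.48% and 4.27% of all genes. The median log2 fold change of the 19 was 0.1. RefSeq holds a gene of the same name on the same chromosome for 11 of the 25, and only these are named.

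Among the other synthesis genes none passed. The lipoxygenase gene *LOXD* (Solyc03g122340.2), which acts before AOS in tomato leaves, had 96.7 ± 3.88 FPKM in RNAi fruit and 90.3 ± 5.84 FPKM in wild type fruit (SD, n = 3 each; edgeR adjusted p = 0.816). *FAD7*, a plastid desaturase that makes linolenic acid, had 75 ± 8.68 FPKM in RNAi fruit and 63.9 ± 10.2 FPKM in wild type fruit (edgeR adjusted p = 0.509). *ACX1A*, an acyl-CoA oxidase of the β-oxidation step, had 62.6 ± 1.04 FPKM in RNAi fruit and 63.1 ± 2.71 FPKM in wild type fruit (edgeR adjusted p = 0.67). *AOS1* was thus the only synthesis gene of the 7 named and tested that passed.

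*JAR1* (Solyc10g011660.2), which joins jasmonic acid to isoleucine to make the form that COI1 perceives, had 7.44, 6.43 and 7.15 FPKM in RNAi libraries 1 to 3, against 8.11, 9.11 and 7.69 FPKM in wild type libraries 1 to 3. All RNAi libraries lay below all wild type libraries. The log2 fold change was -0.30 ± 0.12 (SE), with an unadjusted p of 0.0376 and an edgeR adjusted p of 0.167, so it did not pass.

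Of the other transcription factors, *JA2L* (Solyc07g063410.2), a jasmonate-responsive NAC factor, rose. It had 28.1, 26.6 and 30.7 FPKM in RNAi libraries 1 to 3, against 19.1, 14.2 and 15.5 FPKM in wild type libraries 1 to 3. The log2 fold change was 0.75 ± 0.13 (SE; edgeR adjusted p = 0.00708), and it passed in all 15 alternatives (adjusted p 1.14e-06 to 0.0392). The lowest of these values came from the fit with a term added after seeing the data. The related NAC gene *JA2* had 166 ± 20.4 FPKM in RNAi fruit and 141 ± 20.8 FPKM in wild type fruit (SD, n = 3 each; edgeR adjusted p = 0.441). *MYC1*, a bHLH factor related to *MYC2*, had 28.9 ± 2.19 FPKM in RNAi fruit and 29.3 ± 2.1 FPKM in wild type fruit (edgeR adjusted p = 0.707).

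Defence genes that jasmonate induces in wounded tomato leaves were at low levels in the fruit. *ARG2* (Solyc01g091170.2), an arginase, rose. It had 3.08, 2.89 and 3.02 FPKM in RNAi libraries 1 to 3, against 1.06, 1.13 and 1.70 FPKM in wild type libraries 1 to 3. The groups did not overlap, on 39 to 41 reads per RNAi library and 14 to 23 per wild type library (log2 fold change 1.15 ± 0.23 SE; edgeR adjusted p = 0.0151). It did not pass without RNAi library 1 or wild type library 2 (edgeR adjusted p = 0.0564 and 0.07).

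*LAPA1* (Solyc12g010020.1), a leucine aminopeptidase, had 3.19, 5.10 and 1.52 FPKM in RNAi libraries 1 to 3, against 1.34, 0.16 and 2.92 FPKM in wild type libraries 1 to 3. The values scattered in both groups and overlapped (edgeR adjusted p = 0.376), and its expected counts were fractional in all 6 libraries, so its level is uncertain. *TD2* (Solyc09g008670.2), a threonine deaminase, had 0, 0 and 3 reads in RNAi libraries 1 to 3 and 1, 2 and 1 reads in wild type libraries 1 to 3, too few to test.

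The remaining gene of the list that rose was listed as a further *JAZ* repressor gene, but RefSeq holds no gene of the name it was given. Solyc08g036620.2 had 8.26, 6 and 8.48 FPKM in RNAi libraries 1 to 3, against 1.98, 2.32 and 1.15 FPKM in wild type libraries 1 to 3. Its groups lay far apart, on 21 to 30 reads per RNAi library and 4 to 8 per wild type library. The log2 fold change was 1.98 ± 0.32 (SE; 95% interval 1.25 to 2.71; edgeR adjusted p = 0.0058), and it passed in all 15 alternatives (adjusted p 0.000146 to 0.0346). Here too the lowest value came from the fit with a term added after seeing the data.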

How the data were processed

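Each library has 1 deposited file with an expected count and an FPKM value per gene, per the file headers; the deposited expected counts can be fractional, and the authors' FPKM values were used as they stand. The sources used here do not name the aligner, counting program, strand or genome build. Genes missing from a file were set to 0. Between 94.5% and 94.9% of a library's expected counts were whole (tolerance 0.005).

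Expected counts were rounded. edgeR 4.0.16 (R 4.3.3) kept genes by filterByExpr (minimum count 10, minimum total 15), scaled libraries by TMM (factors 0.967 to 1.04) and fitted the quasi-likelihood model on group alone to all 16737 genes, with Benjamini-Hochberg adjustment. Standard errors are |log2 fold change| / √F. P-values measure the spread between these libraries, which may be technical. log2 CPM used a prior count of 2. Alternatives used DESeq2 1.42.0, limma 3.58.1, other scaling, no filter, the replicate number as a block, and fits without single libraries. Others, added after seeing the data, left out wild type library 1 and RNAi library 3 or gave those libraries a term. Plots used matplotlib 3.10.9.

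Names were checked against RefSeq genes of assembly SLM_r2.1 by name, chromosome and gene order: 7 of the 10 matched, and *JAZ1*, *JAZ6* and *JAZ7* had no RefSeq gene of that name. No sequences were used, and gene positions served only the check of order. That check says nothing for a chromosome with a single matched gene. The 10 genes and the lists were chosen with earlier results of these data known. Named were the 10 genes, called genes of the pathway list, other pathway genes named in RefSeq (added after their values were seen), tissue markers, and the 2 genes most like *MYC2*.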

Additional observations from a re-analysis of the deposited data

How the results depend on the processing

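The call of *AOS1* held in all 15 alternatives and that of *JAZ3* in 14; signs of *AOS1*, *OPR3*, *MYC2*, *JAZ1*, *JAZ2*, *JAZ3* and *JAZ7* held in all 15. Other settings raised the 2 higher calls among the 10 genes to 5 with limma on log2(FPKM + 1) or log2(FPKM + 0.1). Those settings called 7.48% and 7.37% of all genes higher. Without single libraries 2 to 4 were higher, and over all genes 1105 to 2015 were called (2065 with all libraries), with 1140, 1199, 1105 and 1152 without RNAi library 1 or 2 or wild type library 2 or 3. Of the alternatives added after seeing the data, 1 used the 4 libraries without wild type library 1 and RNAi library 3. It gave 4 of the 10 higher, 5 of the other pathway genes higher and 3652 genes called. Of all genes, that fit called 11.4% higher and 10.4% lower. A term for wild type library 1 and RNAi library 3 gave 5 of the 10 higher, 7 of the others higher and 1 lower. That fit called 5384 genes, 15.9% of all genes higher and 16.3% lower. The split was found in these data, so these counts can be too high. Deviations of same-numbered libraries correlated at r = -0.493, 0.279 and -0.521, and no library correlated best with its own number. The highest correlation was between RNAi library 3 and wild type library 1 (r = 0.696). With the replicate number as a block, 1 of the 10 was higher (*JAZ3* edgeR adjusted p = 0.0632) and *ARG2* did not pass (0.0614). That fit called 877 genes, 2.96% of all genes higher and 2.28% lower.

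Signs near 0 turned. *COI1* (-0.002) came to 0.004 with RLE factors and with DESeq2, 0.008 with upper-quartile scaling, 0.006 without a filter, 0.047 and 0.049 with limma, and -0.076 to 0.087 without single libraries. Without single libraries *AOC* ran from -0.104 to 0.162, *JAZ6* from -0.024 to 0.186 and *LOXD* from -0.012 to 0.088. The cause was not tested. Reads were few for *JAZ7*, *ARG2*, *LAPA1*, *TD2* and Solyc08g036620.2, which limits their precision.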
